A study of Sus scrofa with 15 samples.

Results

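OAS1 and EIF2AK2 are sensors of double-stranded RNA, and each was represented by 1 probe set of a porcine Affymetrix array, selected as every probe set annotated with exactly these symbols. They were 2 of 1260 named genes and 2 of 3272 probe sets in the table. The samples were backfat, labelled as the inner layer of the adipose tissue, taken at slaughter from 15 Iberian pigs. All were castrated males, and each pig gave 1 array. The control group held 7 pigs fed a standard diet with 3130 kcal of crude energy per kg of feed, and the high-oleic group held 8 pigs fed a diet with 3360 kcal per kg. Rations were matched between groups for energy and protein over 24 weeks of treatment, which began at a live weight of 28 kg. The series design gives slaughter at 110 kg, but the live weights in the labels ran from 112.0 to 133.0 kg in control pigs and from 104.5 to 116.0 kg in high-oleic pigs. The mean weight of high-oleic pigs, 109.2 ± 3.52 kg (SD, n = 8), was lower than that of control pigs, 117.2 ± 7.32 kg (SD, n = 7), with an exact permutation p of 0.00559 (two-sided), so diet and weight go together. No genotype, infection or interferon treatment is given in the labels.

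Double-stranded RNA is a common by-product of viral replication, and cells carry several proteins that recognise it. OAS1, a 2'-5'-oligoadenylate synthetase, makes short oligoadenylates on binding such RNA, and these activate RNase L, which cleaves RNA in the cell. EIF2AK2, the protein kinase R, phosphorylates the translation initiation factor eIF2 alpha on binding it, which halts protein synthesis. Both genes are themselves induced by type I interferon, as is MX1, a dynamin-like GTPase with antiviral activity that served here as the reading of the interferon response. In the pig RefSeq annotation of assembly Sscrofa11.1, OAS1 lies between the coding genes OAS2 and RPH3A, and EIF2AK2 lies between SULT6B1 and GPATCH11.

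Of the 3272 probe sets, 3255 were tested after 17 manufacturer controls were left aside. Array medians lay between 6.39 and 6.67 on the log2 scale. Precision is limited by the small number of arrays. In each deposited probe set the 3rd largest deviation from its own median was at least 0.59 on the log2 scale, so every percentage among probe sets given here is among variable ones. Both members had passed that limit, with 3rd largest deviations of 2.42 for OAS1 and 2.21 for EIF2AK2. The tissue label was read against 16 adipocyte markers, of which 5 were measured. LEP, the leptin gene, lay between 10.29 and 12.52, and FASN, the fatty acid synthase, lay between 9.06 and 10.79 over the 15 animals. PNPLA2 lay between 8.11 and 9.37, RBP4 between 8.30 and 10.25, and PCK1 lower and wider, between 3.47 and 8.75. Of the 6 plasmacytoid dendritic cell markers, cells known for interferon secretion, 0 were measured.

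OAS1 and EIF2AK2 both stood far above their usual level in the same pair of pigs, control animal 1 and high-oleic animal 2, which also had the highest MX1. In the other 13 pigs each gene had 1 isolated low animal, and that animal was not the same for both genes. Over these 13, neither gene was shown to follow MX1. Over all 15 pigs, neither gene passed the test for diet or live weight.

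In the 7 control pigs, numbered 1 to 7, the log2 signal of OAS1 was 12.18, 7.09, 9.44, 9.03, 9.93, 9.43 and 9.52. In the 8 high-oleic pigs, numbered 1 to 8, OAS1 was 9.10, 12.68, 9.62, 9.37, 10.23, 9.87, 9.50 and 9.97. The groups overlapped over most of their range, with 1 pig of each group far above the rest and control animal 2 far below it.

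In the control pigs, in the same order, the log2 signal of EIF2AK2 was 12.51, 9.52, 9.78, 8.87, 9.29, 9.02 and 8.59. In the high-oleic pigs EIF2AK2 was 9.75, 11.73, 9.74, 9.75, 9.56, 9.26, 8.88 and 7.29. The groups overlapped again, and control animal 1 and high-oleic animal 2 were again the highest of all 15, while the lowest pig was high-oleic animal 8.

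MX1 in the control pigs was 12.71, 7.88, 9.49, 8.06, 8.06, 8.17 and 8.24 on the log2 scale. In the high-oleic pigs MX1 was 8.78, 12.69, 9.39, 8.50, 8.63, 9.04, 8.34 and 9.28. Its lowest value, in control animal 2, stood close to the next lowest, so MX1 had no isolated low animal. The plot of log2 signals by animal shows the shared high pair and the separate low animals.

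**Figure D1:**
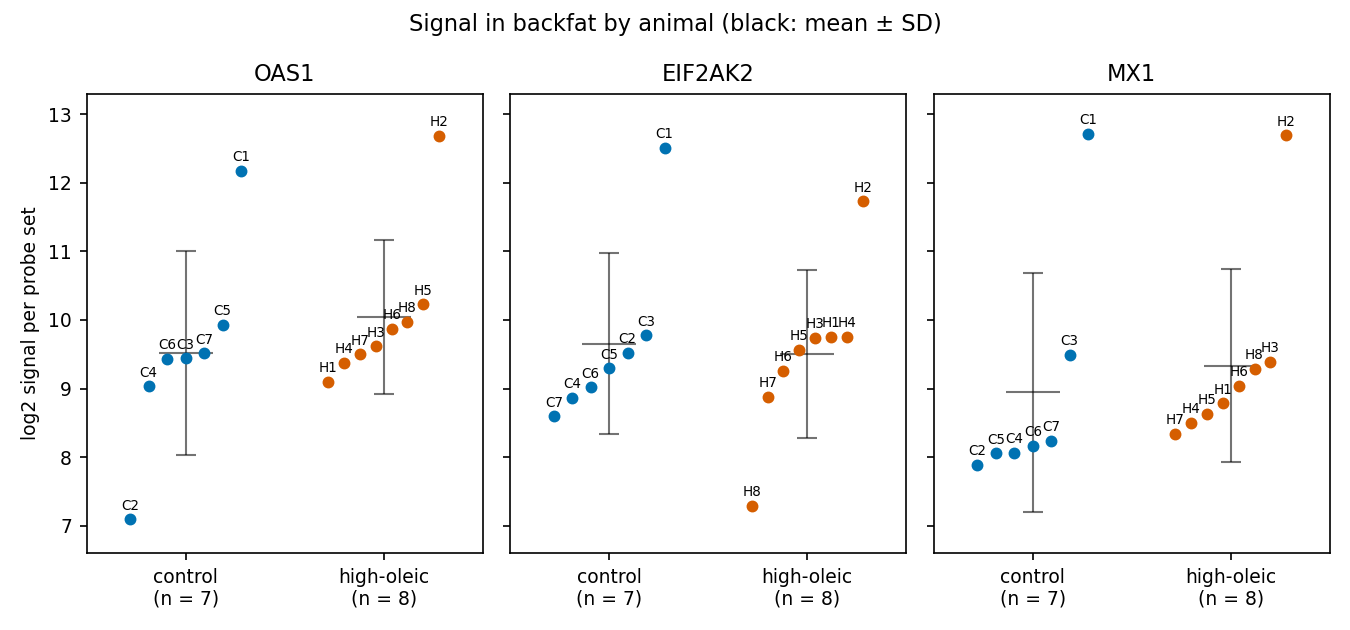
Log2 signal (vertical axis) of OAS1, EIF2AK2 and MX1 in each pig, with 7 control pigs (C1 to C7, blue) and 8 high-oleic pigs (H1 to H8, orange). Black marks show the mean and SD of each group. C1 and H2 top each panel, while the lowest point is C2 at 7.09 for OAS1 and H8 at 7.29 for EIF2AK2.

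Baseline was taken as the median of the 13 pigs other than the high pair, whose choice rests on interferon-induced genes, so the rises of the pair are described without a test. The baseline log2 signal was 9.50 for OAS1, 9.29 for EIF2AK2 and 8.50 for MX1. Signals of different probe sets depend on the probes as well as the transcript, so these baselines give no order of abundance. Around the baseline, the SD over the 13 pigs was 0.77 for OAS1, 0.69 for EIF2AK2 and 0.55 for MX1. The median SD over all tested probe sets was 0.52, and 85.7% of probe sets had a smaller SD than OAS1 and 79.5% a smaller one than EIF2AK2.

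The range over all 15 pigs was 5.59 on the log2 scale for OAS1, a 48.2-fold span. It was 5.21 for EIF2AK2, a 37.1-fold span, and 4.83 for MX1, a 28.4-fold span. Ranges this wide were uncommon, since the median range of all probe sets was 2.01 and 98.8% of them had a smaller range than OAS1. The wider span of OAS1 and EIF2AK2 than of MX1 came from below the baseline. Over the 13 pigs the range was 3.13 for OAS1, 2.48 for EIF2AK2 and 1.60 for MX1.

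A single pig set most of the remaining range of each member. Without control animal 2, the other 12 of these pigs had OAS1 between 9.03 and 10.23, a range of 1.20, and control animal 2 lay 3.83-fold below the lowest of them. Without high-oleic animal 8, the other 12 had EIF2AK2 between 8.59 and 9.78, a range of 1.18, and high-oleic animal 8 lay 2.47-fold below the lowest of them. The low state was not shared, as control animal 2 had an EIF2AK2 signal of 9.52 and high-oleic animal 8 had an OAS1 signal of 9.97, both above the baseline. Neighbours in the order of the remaining pigs were close, within ranges of 1.20 and 1.18 over 12 animals, and with 1 array per pig their order has no error of its own.

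Both low pigs were extreme in other measures as well. Control animal 2 had the highest skeletal muscle score, 3.36, a mean over 9 of 11 markers of the log2 value minus its mean over all pigs. The next highest scores were 2.98 in high-oleic animal 7, with OAS1 at its median of 9.50, and 2.14 in control animal 5, with OAS1 at 9.93. Control animal 2 also had the lowest adipocyte score, -0.58. It was the lowest of the 13 pigs in 5 of 18 measured interferon-induced genes and in 9.40% of the 3255 probe sets. The cause of the low OAS1 in control animal 2 was not tested. High-oleic animal 8 had the highest macrophage score, 1.27 over 8 of 16 markers, and the highest signal for transcripts spiked into the RNA, 7.29. It also had the highest adipocyte score, 0.90, and the highest lymphocyte score of the 13, 0.37. High-oleic animal 8 was the lowest of the 13 pigs in 24.7% of the 3255 probe sets and the highest in 30.2%. Over the 13 pigs the r of OAS1 with the muscle score was -0.358 (permutation p = 0.252, adjusted over 7 relations 0.441), and it was 0.459 without the 2 pigs farthest from the median score. The rho was 0.016 (permutation p = 0.963), and r was -0.580 in control pigs (exact permutation p = 0.263) and 0.318 in high-oleic pigs (exact permutation p = 0.494).

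The r of EIF2AK2 with the macrophage score was -0.638 (permutation p = 0.0206, adjusted 0.0721), and rho was -0.505 (permutation p = 0.0811, adjusted 0.189). It was -0.248 in control pigs (exact permutation p = 0.621) and -0.691 in high-oleic pigs (exact permutation p = 0.0546). Without high-oleic animal 8 it was -0.350 (adjusted permutation p = 0.464), without high-oleic animal 1 it was -0.783 (adjusted permutation p = 0.0174), and without the farthest 2 it was -0.205. EIF2AK2 had an r of -0.125 with the muscle score (permutation p = 0.689, adjusted 0.803), and OAS1 an r of 0.042 with the macrophage score (permutation p = 0.873, adjusted 0.873).

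In control animal 1, OAS1 was 2.68 above its baseline on the log2 scale, 6.40-fold, and 3.86-fold above the highest of the 13 pigs. In high-oleic animal 2 it was 3.19 above, 9.10-fold, and 5.49-fold above the highest of the 13. OAS1 therefore stood higher over its baseline in the high-oleic pig of the pair.

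EIF2AK2 had the opposite order. In control animal 1 it was 3.21 above its baseline on the log2 scale, 9.27-fold, and 6.64-fold above the highest of the 13. In high-oleic animal 2 it was 2.44 above, 5.42-fold, and 3.88-fold above the highest of the 13. MX1 was 4.21 and 4.19 above its baseline in the pair, or 18.6-fold and 18.3-fold, so the order of the members differed at nearly equal MX1. With 1 array per pig, these orders have no error of their own. The signal of the spiked transcripts also differed within the pair, 5.19 against 5.67. Over the 13 pigs that signal had an r of -0.804 with EIF2AK2 and 0.541 with OAS1, the same direction as these orders. The part of the spiked signal in the orders was not tested. On the log2 scale OAS1 reached 0.636 and 0.760 of the MX1 rise, control animal 1 first, and EIF2AK2 reached 0.762 and 0.581.

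Among all 3255 probe sets ranked by rise, OAS1 was number 59 in control animal 1 but number 30 in high-oleic animal 2. EIF2AK2 was number 31 and number 71. Both pigs of the pair lay above all 13 others in 236 of the 3255 probe sets (7.25%). Of the 3255, 62 (1.90%) stood 2 or more above their baseline on the log2 scale in both pigs, and 61 of these were among the 236. The pair was picked out by such genes, so nothing follows from the members being among them. In whole tissue, fewer cells of a type and less RNA per cell cannot be told apart.

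Markers of several other cell types moved with the pair in part. The lymphocyte score, over 3 of 20 markers, was 0.81 and 1.19 in the pair, against -0.69 to 0.37 in the 13 pigs. CD2, a surface protein of T and NK cells, was 5.91 and 6.81 on the log2 scale, against 2.52 to 4.07 in the 13. CD3E, a subunit of the T cell receptor complex, was 2.54 and 2.46, within 2.01 to 3.59 in the 13. CD8A, the other lymphocyte marker measured, was 4.82 and 5.12, against 3.49 to 4.86 in the 13. Only CD2 of these markers had both pigs above all 13. The macrophage score was 0.010 and 0.74 in the pair, within -1.32 to 1.27 in the 13. Of 3 endothelial markers measured among 8, KDR, a receptor for vascular growth factor, was 3.76 and 3.58 in the pair, above the highest of the 13, 3.31, and the other two were not above all 13 in both pigs. Of 3 erythroid markers measured among 5, both pigs lay below all 13 in AHSP, at 2.61 and 2.68 against 3.10 or more, and in ALAS2, at 5.91 and 5.70 against 5.96 or more. HBM, the third, was 5.85 and 6.14, within 5.09 to 8.60 in the 13. The erythroid score, -0.98 and -0.94, lay within -1.05 to 1.20 in the 13. The skeletal muscle score was -2.34 in control animal 1, the lowest of the 15, and -0.39 in high-oleic animal 2. The adipocyte score, -0.27 and 0.33, lay within -0.58 to 0.90 in the 13. The part of such cells in the rises of OAS1 and EIF2AK2 was not tested. The spiked signal was 5.19 in control animal 1, the lowest of all, and 5.67 for high-oleic animal 2.

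The other genes of double-stranded RNA sensing and of the interferon response came from 5 lists with 104 entries, of which 31 genes were measured, the members and MX1 included. In 25 of the 31, both pigs of the pair lay above all 13 others, beside the 7.25% of all probe sets. The pair was picked out by interferon-induced genes, and such genes can pass the variability filter through the pair. The counts and rises of these lists, here and below, therefore describe that choice and are no test of it. Of 7 genes of the OAS and RNase L list, OAS1 alone was measured. Of 17 genes of the EIF2AK2 pathway, 4 were measured, and EIF2AK2 was the 1 with both pigs above all others. PRKRA, a protein activator of EIF2AK2, was -0.015 and -0.25 from its baseline in the pair. DDIT3, a stress transcription factor induced downstream of eIF2 alpha phosphorylation, was -0.045 and 0.97 from it.

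Other RNA sensors and adaptors had both pigs above all others in 4 of the 5 measured. DDX58, the RIG-I sensor of viral RNA ends, was 4.77 and 4.27 above its baseline on the log2 scale in the pair, control animal 1 first. ZBP1, a sensor of left-handed nucleic acids, was 5.42 and 4.51 above, and IRF7, a transcription factor for interferon genes, was 3.93 and 4.65 above. PNPT1, a mitochondrial RNA exonuclease, was 2.28 and 1.22 above. IRF3, a transcription factor held ready in unstimulated cells, was 0.48 and 0.80 above, with neither pig beyond the range of the 13.

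In the interferon receptor list the same held in 2 of 3. IRF9, which carries the interferon signal to DNA, was 2.23 and 2.12 above its baseline, and USP18, which restrains the receptor, was 3.91 and 3.80 above. Among other interferon-induced genes it held in 17 of 18, MX1 included, with median rises of 2.69 and 2.13, against 0.0021 and -0.010 over all tested probe sets. The exception was GBP1, a guanylate-binding protein, with 1.08 and 0.20. The plot of rises in the pair places the members among these genes.

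How far each member followed MX1 was read in the 13 pigs without the pair. A limma fit across all probe sets gave the slope on MX1 with diet in the model, as log2 units per log2 unit of MX1. The slope of OAS1 was 0.46 with a standard error of 0.40 (95% interval -0.39 to 1.31, n = 13), and limma gave an adjusted p of 0.977. The slope of EIF2AK2 was 0.00068 with a standard error of 0.41 (95% interval -0.87 to 0.87), and limma gave an adjusted p of 1.00. Neither member passed the test, and both intervals still hold slopes near 0.8.

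None of the 3254 probe sets passed at an adjusted p under 0.05 in this limma fit (0.0%), and 106 had an unadjusted p under 0.05 (3.26%), 42 with a positive and 64 with a negative slope. The members were in neither count. With all 15 pigs the limma slopes were 0.72 for OAS1 (adjusted p = 0.000207) and 0.66 for EIF2AK2 (adjusted p = 0.00139), and 138 probe sets passed. Those slopes rest on the pair, as leaving it out ended both calls.

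As a correlation over the 13 pigs, OAS1 and MX1 had a Pearson r of 0.446 (permutation p = 0.114, adjusted over 2 relations 0.229) and a Spearman rho of 0.390 (permutation p = 0.189, adjusted 0.244). Without control animal 3 and high-oleic animal 3, the farthest from the MX1 median, r was 0.538. Within diets r was 0.332 in the 6 control pigs (exact permutation p = 0.357) and 0.272 in the 7 high-oleic pigs (exact permutation p = 0.545). OAS1 thus leaned upward with MX1 in each reading without passing a test, and without control animal 2, the lowest in both genes, r was 0.225.

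For EIF2AK2 and MX1 the Pearson r was 0.00012 (permutation p = 1.00) and the Spearman rho was 0.346 (permutation p = 0.244, adjusted 0.244). Without control animal 3 and high-oleic animal 3, r was -0.370. Within diets r was 0.524 in the 6 control pigs (exact permutation p = 0.328) and -0.313 in the 7 high-oleic pigs (exact permutation p = 0.572). The sign differed between readings. High-oleic animal 8 was lowest in EIF2AK2 with a high MX1, 9.28, and without that pig r was 0.575 (permutation p = 0.0519, adjusted 0.104). The score of the other interferon-induced genes was not high in that pig, at -0.56. It was 0.23 in high-oleic animal 3 and 0.21 in control animal 3, whose MX1 was 9.39 and 9.49. With the high pair left out, high-oleic animal 8 was lowest in 5 of 18 measured interferon-induced genes and highest in 3. The plot of each member against MX1 shows this pig below the others.

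**Figure D2:**
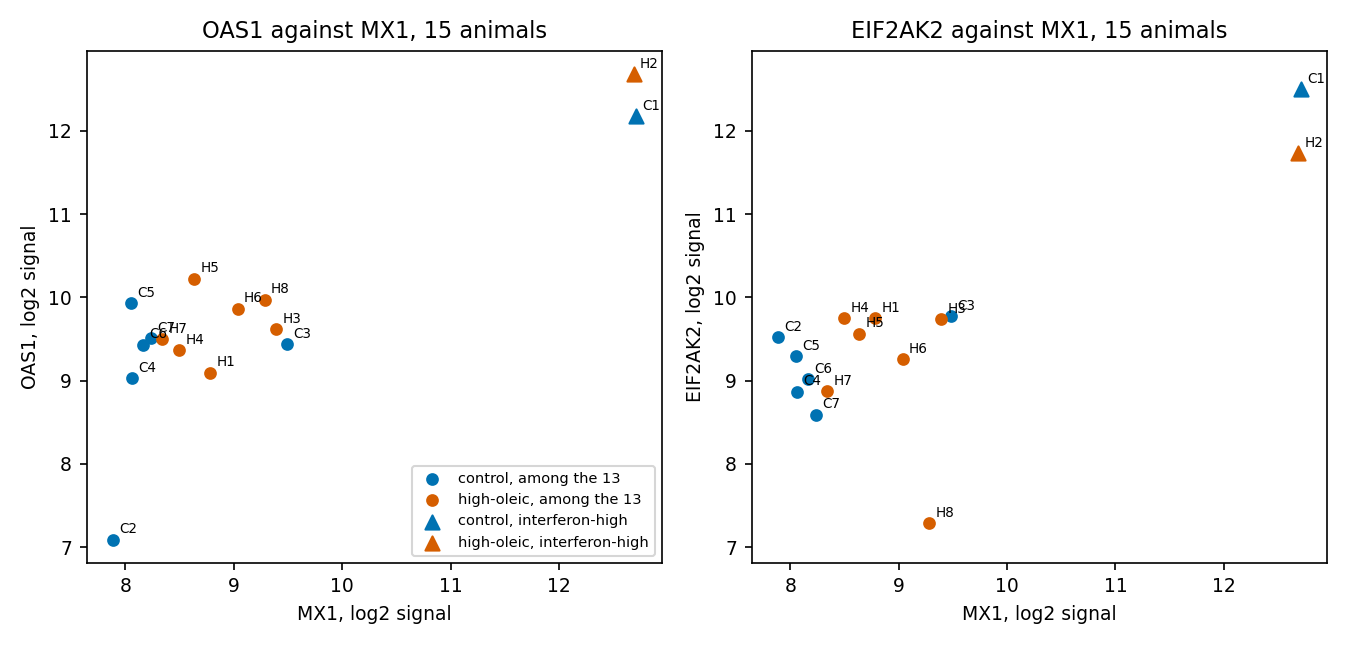
Log2 signal of OAS1 and of EIF2AK2 (vertical axes) against log2 signal of MX1 (horizontal axes) in the pigs, with control pigs in blue, high-oleic pigs in orange and the high pair as triangles. The pair at the upper right lies apart at MX1 near 12.7, and among the 13 others r was 0.446 for OAS1 and 0.00012 for EIF2AK2.

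The members were not shown to differ in how they followed MX1. The slope of OAS1 minus that of EIF2AK2 was 0.46 over the 13 pigs, with a permutation p of 0.509 over 100000 resamples within diet. Leaving out single pigs moved it from 0.013 (control animal 2) to 1.52 (control animal 3), and it was 0.053 without high-oleic animal 8 and 0.69 without high-oleic animal 3, with no permutation p under 0.183. The OAS1 slope alone moved from 0.086 without control animal 2 to 0.70 without control animal 3. The difference in slope between diets, high-oleic minus control, was -0.31 for OAS1 (95% interval -2.14 to 1.52) and -1.09 for EIF2AK2 (95% interval -2.87 to 0.69), with limma adjusted p of 0.952 and 0.858. OAS1 and EIF2AK2 had an r of -0.232 with each other over the 13 pigs (permutation p = 0.359) and a rho of -0.214 (permutation p = 0.483). The adjusted values over 7 further relations were 0.503 and 0.676.

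Among the 17 other measured interferon-induced genes, r with MX1 over the 13 pigs had a median of 0.384 and ran from -0.026 to 0.895, against a median of -0.030 over all tested probe sets. OAS1 had a lower r than 8 of the 17 and a higher one than 94.4% of all probe sets. EIF2AK2 had a lower r than 16 of the 17 and a higher one than 53.4% of all probe sets. The highest was ISG15, a ubiquitin-like protein, whose limma slope was 1.42 (adjusted p = 0.212). Of the 17, 5 had an unadjusted p under 0.05 in limma, all with a positive slope, beside 3.26% of all probe sets, and 0 passed after adjustment. The plot of r values shows the spread from ISG15 down to JAK2, with the members between.

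**Figure D3:**
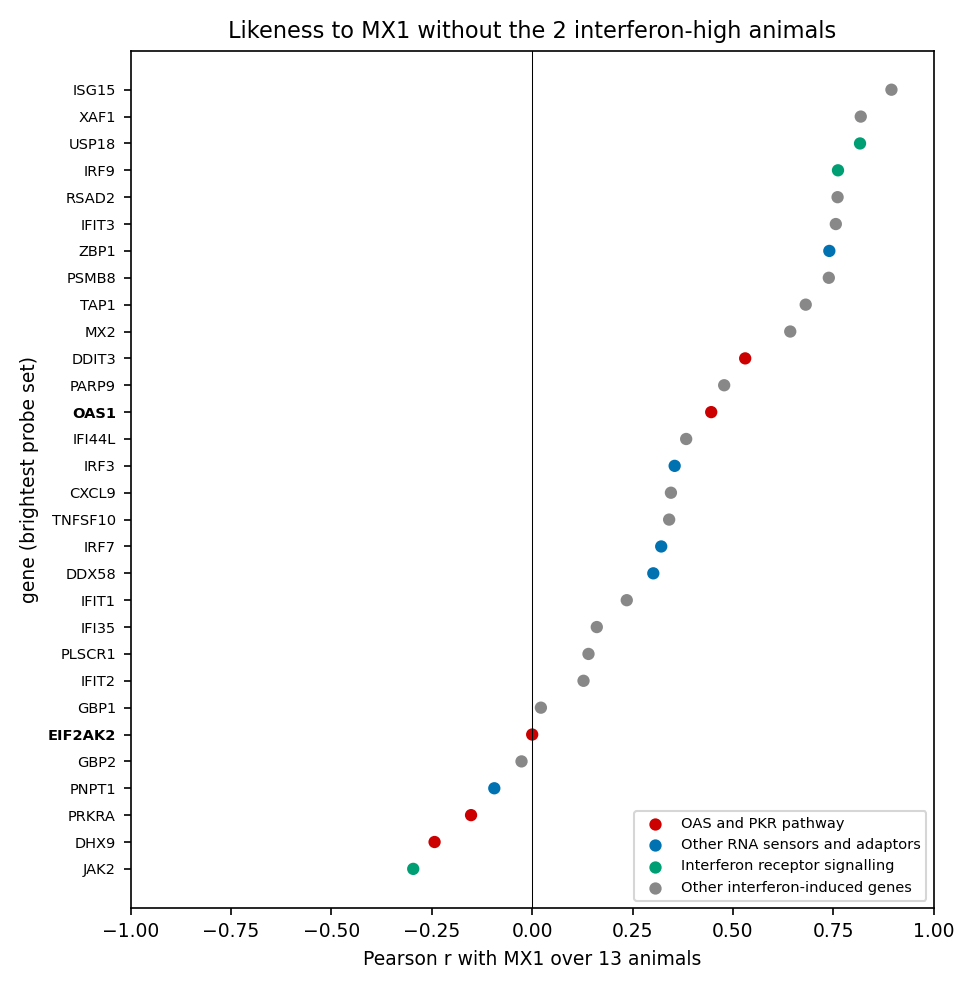
Pearson r with MX1 over 13 pigs (horizontal axis) for the measured genes of the interferon and RNA sensing lists, coloured by list, with the members in bold. ISG15 is highest at 0.895, OAS1 is at 0.446 and EIF2AK2 is near 0.

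The signal of the transcripts spiked into the RNA, a mean over 7 control probe sets, moved with both members in opposite directions. For EIF2AK2 the Pearson r with it was -0.804 over the 13 pigs (permutation p = 0.00227, adjusted over 7 relations 0.0159), and rho was -0.648 (permutation p = 0.0194, adjusted 0.0681). It was -0.827 in the 6 control pigs (exact permutation p = 0.0486) and -0.838 in the 7 high-oleic pigs (exact permutation p = 0.0101). Without high-oleic animal 8 r was -0.564 (permutation p = 0.0581, adjusted 0.203), and without the 2 pigs farthest from the median spiked signal it was -0.496, so the call rests on high-oleic animal 8. An r below that of EIF2AK2 was found in 3.47% of probe sets.

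For OAS1 the r with the spiked signal was 0.541 (permutation p = 0.0680, adjusted 0.159), and rho was 0.780 (permutation p = 0.00264, adjusted 0.0185). Within diets r was 0.714 in the control pigs (exact permutation p = 0.0583, n = 6) and 0.788 in the high-oleic pigs (exact permutation p = 0.0347, n = 7), and without the farthest 2 it was 0.572. On leaving out control animal 2, or else high-oleic animal 8, rho was 0.734 in each case, little changed, with adjusted permutation p of 0.0624 and 0.0579. Without control animal 2 the Pearson r was 0.685, and its adjusted permutation p, 0.0464, passed. An r below that of OAS1 was found in 75.7% of probe sets, and the median over all was 0.131. The spiked transcripts are added to the RNA and do not come from the pig. What moved their signal between arrays, and its part in the differences between pigs, was not tested. The plot against the spiked signal shows the opposite slopes.

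**Figure D4:**
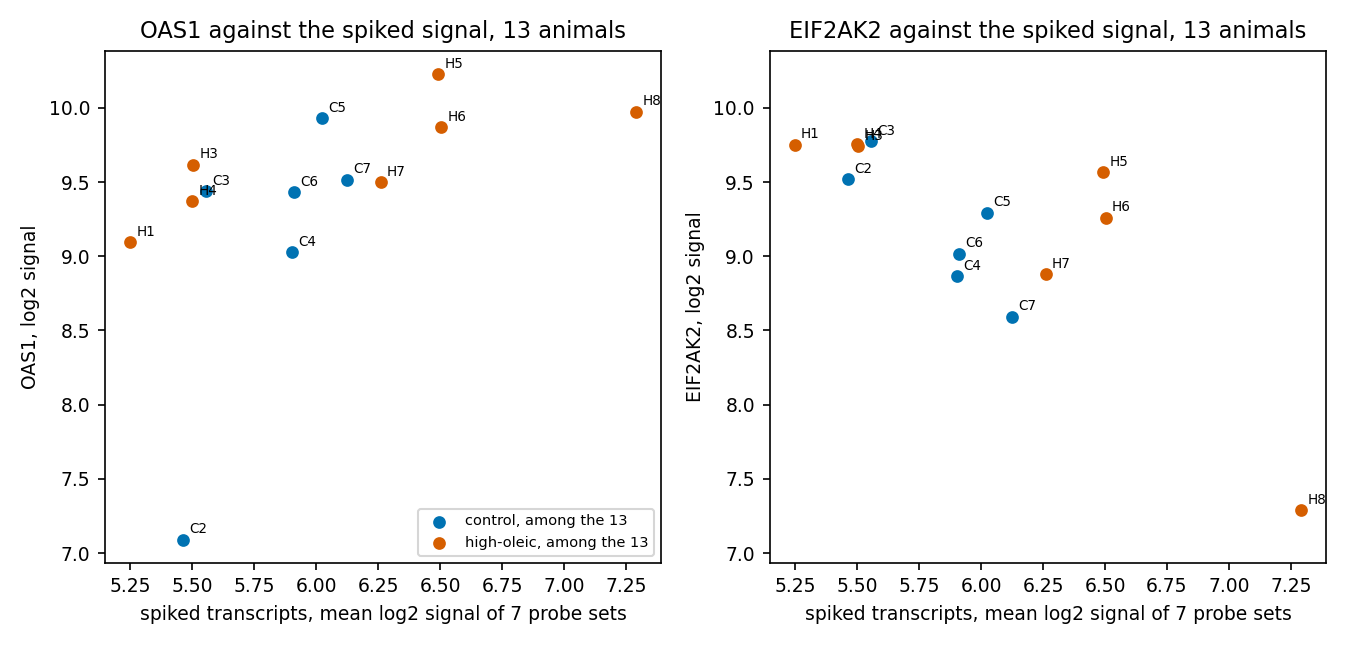
Log2 signal of OAS1 and of EIF2AK2 (vertical axes) against the mean log2 signal of 7 spiked control probe sets (horizontal axes), with control pigs in blue and high-oleic pigs in orange. Over the 13 pigs without the high pair, r was 0.541 for OAS1 and -0.804 for EIF2AK2, with high-oleic animal 8 at the far right at 7.29.

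The genes whose log2 signals were most like each member over the 13 pigs were taken as the 6 named genes with the highest Pearson r. For OAS1 these were EEF1AKMT1 (r = 0.782), GAMT (r = 0.774), CSNK1D (r = 0.764), ZCCHC24 (r = 0.763), MTHFD1 (r = 0.755) and SPECC1L (r = 0.744). EEF1AKMT1 is a methyltransferase for a translation elongation factor, GAMT makes creatine, CSNK1D is a casein kinase and MTHFD1 is a folate enzyme. None of the 6 is among the interferon-induced genes listed here, and in the pair they were -0.90 to 0.35 from their baselines.

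For EIF2AK2 these were POLI (r = 0.876), DDX58 (r = 0.876), ZDHHC20 (r = 0.869), RTN3 (r = 0.869), ATAD1 (r = 0.865) and MORC3 (r = 0.856). DDX58 is the RNA sensor RIG-I, POLI is a DNA polymerase, ZDHHC20 is a palmitoyltransferase, RTN3 shapes the endoplasmic reticulum, ATAD1 extracts proteins from the mitochondrial membrane and MORC3 is a nuclear ATPase. DDX58 and MORC3 also stood high in the pair, MORC3 by 2.49 and 2.09. An r above 0.8 was reached by 72 probe sets for EIF2AK2 and by 1 for OAS1. These r values were not computed without the low pigs, control animal 2 for OAS1 and high-oleic animal 8 for EIF2AK2. High-oleic animal 8 was the lowest of the 13 in 24.7% of all probe sets and the highest in 30.2%, so the counts may rest on that pig. With the spiked signal, the 6 genes of EIF2AK2 had an r of -0.87 to -0.69, and the 6 genes of OAS1 an r of 0.565 to 0.747. In both sets the likeness and the spiked signal thus rest on the same 13 pigs.

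The comparison of diets asks whether feeding a diet rich in oleic acid moved the 2 sensors. OAS1 had a log2 signal of 10.04 ± 1.13 (SD, n = 8) in high-oleic pigs and 9.52 ± 1.49 (SD, n = 7) in control pigs. The difference was 0.52 with a standard error of 0.57, and its 95% interval ran from 0.635-fold to 3.26-fold. The limma adjusted p was 0.999, and the exact permutation test over all 6435 splits gave p = 0.402. Each diet holds 1 pig of the high pair. Without the pair OAS1 was 9.66 ± 0.39 (SD, n = 7) against 9.07 ± 1.01 (SD, n = 6), and the difference of 0.59 did not pass either.

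EIF2AK2 had a log2 signal of 9.50 ± 1.22 (SD, n = 8) in high-oleic pigs and 9.65 ± 1.32 (SD, n = 7) in control pigs. The difference was -0.16 with a standard error of 0.55, and its 95% interval ran from 0.404-fold to 1.99-fold. The limma adjusted p was 0.999, and the exact permutation p was 0.838. Without the pair both groups had a mean of 9.18, with an SD of 0.89 in the high-oleic pigs and 0.44 in the control pigs. MX1 differed by 0.39 with a standard error of 0.67 (limma adjusted p = 0.999).

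In limma 0 of 3255 probe sets passed for diet (0.0%), and 128 had an unadjusted p under 0.05 (3.93%), 66 with the higher and 62 with the lower mean in high-oleic pigs. The members were in neither count, and of the 31 measured genes of the 5 lists 0 passed. A single pig moved the differences widely. The OAS1 difference became 0.12 on leaving out control animal 2, 0.15 on leaving out high-oleic animal 2 and 0.97 on leaving out control animal 1. The EIF2AK2 difference ran from -0.48 without high-oleic animal 2 to 0.32 without control animal 1. With live weight as a covariate the OAS1 difference was 0.55 and that of EIF2AK2 was -0.56, and neither passed.

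Live weight at slaughter, as the labels give it, was fitted at fixed diet as a slope per 10 kg. The slope of OAS1 was 0.029 log2 units with a standard error of 0.55 (95% interval -1.13 to 1.18, limma adjusted p = 0.999). For EIF2AK2 it was -0.50 with a standard error of 0.53 (95% interval -1.60 to 0.60, limma adjusted p = 0.919). For MX1 it was -0.96 with a standard error of 0.62 (limma adjusted p = 0.916). In limma 0 of 3255 probe sets passed (0.0%), 124 had an unadjusted p under 0.05 (3.81%), and the members were in neither count.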

How the data were processed

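Values per probe set were deposited by the authors on a log2 scale, in 1 table for 15 arrays. GCOS and GCRMA are named in the submitters' processing notes, without versions or settings. The scale was read from the values, between 1.49 and 14.36, and a filter on variability was found in them that no source states. Of 3255 tested probe sets, 1455 had 1 gene symbol in the platform annotation, 27 had several and 1773 had none. The labels gave each pig its diet, number and live weight, and name no batch.

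Slopes and differences were fitted with limma 3.58.1 in R 4.3.3 over all tested probe sets (lmFit and eBayes, two-sided, Benjamini-Hochberg, threshold 0.05) with no further normalization or filter. Correlations used 100000 permutations, or all orders in under 10 animals, with scipy 1.17.1, and figures used matplotlib 3.10.9. Simulated data had independent noise in each probe set, which the arrays need not have, and 200 changed probe sets drawn at random. In these the diet fit recovered 58% of changes of size 1 and 93% of size 2 (log2), with 9 false calls among 160. The MX1 fit recovered 46% of slopes of 1 and 92% of slopes of 2 on MX1, with 8 false calls among 146. Recovery for OAS1 and EIF2AK2 themselves was not computed.

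Named genes are OAS1, EIF2AK2, MX1, the measured genes of the pathway lists and the 6 named genes most correlated with each member over the 13 pigs. Cell type marker genes and the pigs left out in turn are named only for values beside these results. The members and lists, and the pair left out, were chosen with earlier results of these data known. Alternatives were quantile normalization, median centring, other variance models, array weights, covariates, leaving out animals, diets alone and the animal number as a block. Those without control animal 2 and high-oleic animal 8, the skeletal muscle covariate, the test of slopes between diets and the further relations were chosen after seeing the data.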

Additional observations from a re-analysis of the deposited data

Results flagged for a closer look

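High values that stood apart within a diet group, by a gap from the next value large against the group's whole range (Dixon's 95% limit), were found in 6 of 10 checks. Chance alone flags about 1 in 20 groups, but all 6 fall on control animal 1 and high-oleic animal 2, the pair picked out by such genes, so the count is a description of that choice. OAS1 was set apart in high-oleic animal 2 at 12.68, and EIF2AK2 in control animal 1 at 12.51. MX1 was set apart in control animal 1 at 12.71, and in high-oleic animal 2 at 12.69. The score of the other interferon-induced genes was set apart in the same pigs, at 2.46 in the former and 2.22 in the latter. OAS1 of control animal 1 and EIF2AK2 of high-oleic animal 2 did not pass, with the low animals of those groups, control animal 2 and high-oleic animal 8, widening the range.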

How the results depend on the processing

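OAS1 stayed higher on the high-oleic diet in all 27 settings tried, 0.12 to 0.97, and passed in none. The settings share most of their animals, and other variance models and the exact permutation test cannot move the estimate. Their count is therefore no measure of support. The EIF2AK2 diet difference changed sign, to 0.084 with array weights, 0.36 with the spiked signal as a covariate, 0.14 without control animal 2 and high-oleic animal 8, and between -0.48 and 0.32 with single animals left out. With live weight as a covariate it was -0.56, the lowest of its 27 settings, and the OAS1 slope on MX1 was 0.77 (adjusted p = 0.980). The MX1 slope passed only with all 15 animals (OAS1 0.72, EIF2AK2 0.66). The EIF2AK2 slope was -0.70 in high-oleic animals alone, -0.083 with the skeletal muscle covariate and -0.82 to 0.39 with single animals left out. With the score of other interferon-induced genes in place of MX1, the OAS1 slope was -0.090 and that of EIF2AK2 0.86 (adjusted p = 0.569). The EIF2AK2 correlation with MX1 was -0.313 in high-oleic animals, -0.370 without the 2 animals farthest from the MX1 median, -0.148 to 0.575 with single animals left out, and 0.693 without control animal 2 and high-oleic animal 8 (adjusted permutation p = 0.0411), where the difference of slopes was -0.48. That pair of animals was chosen by the members' own lowest values, so these values are descriptions. The OAS1 live weight slope was -0.028 after median centring, -0.37 without that pair and -0.54 to 0.41 with single animals left out. That of EIF2AK2 was 0.022 without control animal 1 and high-oleic animal 2. The cause of each change was not tested.

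Counts of probe sets passing, 0 in each fit, became 1 for diet with the spiked covariate. For the MX1 slope they became 6 with array weights, 138 with all 15 animals and 1 with the induced-gene score. For live weight they became 5 without control animal 2, 2 without high-oleic animal 7 and 6 without control animal 2 and high-oleic animal 8. Other probe sets of the members or of MX1 were not run, as each has 1.

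With the animal number as a replicate block, only numbers present in both diets were kept. High-oleic animal 8 was thus left out, and for the MX1 slopes the animals numbered 1 and 2 as well. The diet difference was 0.53 for OAS1 and 0.16 for EIF2AK2, the same as without high-oleic animal 8 and with no block. The MX1 slopes were 0.37 and 0.28, and 0 probe sets passed. The numbers were not taken as pairs, as same-numbered animals correlated between -0.161 and 0.296 and 2 of 7 control animals correlated best with their own number. The limits are 1 array per pig, 1 probe set per gene, an unstated filter on variability and wide intervals of the slopes.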
